A study of Mus musculus with 2 samples.

Results

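The sarcomere is the contractile unit of striated muscle. In RNA labelled as coming from mouse primary keratinocytes, 43 genes of the sarcomere and of its calcium and energy supply were followed. The genes were given by symbol, and a gene's probes were those whose RefSeq accession belongs to that symbol. All 43 were represented on the array, of 20144 genes named there, by 55 probes in all. They comprise 14 isoforms of slow fibres or heart, 14 isoforms of fast fibres, 3 embryonic or neonatal isoforms and 12 genes shared between fibre types. The keratinocytes, epithelial cells of the epidermis, came from mice labelled Rac3-KO, the control, and from mice labelled Rac1Rac3-DKO, so both groups lack Rac3 per the labels, and the groups are set apart by Rac1. Both genes encode small GTPases that act on the actin cytoskeleton. The labels call the cells P3 primary keratinocytes, and do not state whether P3 is a postnatal day or a passage. Fibroblast markers were also well above background on both arrays, as given below. The age of the mice and how Rac1 was deleted are not given in the sources used here. Each group was 1 Cy3-labelled 1-colour array, so nothing was replicated, the differences lack a replicate check, and the genotypes could not be tested against each other. Errors given with ± are the scanner software's own signal error on the log2 difference, a technical error within 1 array of each group.

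In a sarcomere, thick filaments of myosin pull on thin filaments of actin, and troponin on the thin filament turns calcium release into contraction. Many of these proteins come from small gene families in which 1 copy serves slow fibres and often the heart, another serves fast fibres, and further copies are made in embryonic and neonatal muscle. Mouse skin lies on a sheet of skeletal muscle, the panniculus carnosus, and epidermal keratinocytes are not known for making sarcomeres. Whether such muscle gave RNA to these samples was not tested.

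Levels are log2 signals relative to the 75th percentile of each array's probes, and a difference is the level on the DKO-labelled array minus that on the Rac3-KO array. A gene was called measured when, on each array, its brightest probe stood well above background. The floor, the lowest processed signal that the scanner software called well above background, was 23.4 in Rac3-KO and 20.1 in the DKO-labelled sample. Of 55678 probes 56.9% and 52.9% passed that call, and 0 spots were saturated. The Rac1 probes differed by 0.28 and -0.12 and the Rac3 probe, well above background on both arrays, by 0.24, so these probes do not bear out the genotype labels. Where the probes lie relative to the deleted parts was not determined, and the array labelled Rac1Rac3-DKO is therefore called the DKO-labelled array.

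The promoters of 3 sets of members are shown because the results below turn on how their members compare. Acta1 and Actc1, the skeletal and cardiac actins, moved alike. Myh4 and Myh8, neighbouring myosin heavy chain genes, moved differently. Tnnt1 and Tnni3, neighbouring troponin genes, also moved differently, though the signals of Tnni3 lay near the floor. Each promoter runs from 250 bases before to 50 bases after the annotated start (RefSeq, GRCm38.p6), 5′ to 3′. Capitals mark each TATAAA (both strands), CAGCTG, MEF2 box or CArG box.
Acta1, chr8:123894726-123895025 (- strand): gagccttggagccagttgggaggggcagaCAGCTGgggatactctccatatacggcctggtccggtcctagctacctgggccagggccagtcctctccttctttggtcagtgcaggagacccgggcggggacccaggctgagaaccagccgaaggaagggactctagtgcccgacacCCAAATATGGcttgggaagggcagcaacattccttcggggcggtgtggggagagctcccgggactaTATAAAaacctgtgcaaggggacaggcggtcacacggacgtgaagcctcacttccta
Actc1, chr2:114052826-114053125 (- strand): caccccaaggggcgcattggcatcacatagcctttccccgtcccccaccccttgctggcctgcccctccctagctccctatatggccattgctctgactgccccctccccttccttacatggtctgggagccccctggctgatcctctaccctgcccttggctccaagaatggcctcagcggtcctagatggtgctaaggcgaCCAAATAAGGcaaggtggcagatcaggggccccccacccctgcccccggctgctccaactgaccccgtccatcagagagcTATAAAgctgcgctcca
Myh4, chr11:67237562-67237861 (+ strand): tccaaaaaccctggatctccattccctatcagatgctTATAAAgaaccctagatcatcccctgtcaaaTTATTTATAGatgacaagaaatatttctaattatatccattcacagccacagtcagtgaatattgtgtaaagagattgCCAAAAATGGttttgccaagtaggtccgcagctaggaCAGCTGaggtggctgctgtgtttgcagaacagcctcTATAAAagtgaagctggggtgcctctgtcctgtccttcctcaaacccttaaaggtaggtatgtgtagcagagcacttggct
Myh8, chr11:67276874-67277173 (+ strand): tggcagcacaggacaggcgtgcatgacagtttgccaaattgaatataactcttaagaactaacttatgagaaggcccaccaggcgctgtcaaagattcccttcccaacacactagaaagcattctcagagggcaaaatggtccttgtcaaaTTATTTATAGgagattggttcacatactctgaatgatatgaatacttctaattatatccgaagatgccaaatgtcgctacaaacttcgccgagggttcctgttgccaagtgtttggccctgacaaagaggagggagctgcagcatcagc
Tnnt1, chr7:4515926-4516225 (- strand): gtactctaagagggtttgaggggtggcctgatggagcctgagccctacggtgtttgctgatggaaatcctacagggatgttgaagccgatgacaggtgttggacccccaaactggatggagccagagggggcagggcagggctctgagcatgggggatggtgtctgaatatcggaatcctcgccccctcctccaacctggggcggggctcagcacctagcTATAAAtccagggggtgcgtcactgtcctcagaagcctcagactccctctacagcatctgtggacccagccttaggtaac
Tnni3, chr7:4522479-4522778 (- strand): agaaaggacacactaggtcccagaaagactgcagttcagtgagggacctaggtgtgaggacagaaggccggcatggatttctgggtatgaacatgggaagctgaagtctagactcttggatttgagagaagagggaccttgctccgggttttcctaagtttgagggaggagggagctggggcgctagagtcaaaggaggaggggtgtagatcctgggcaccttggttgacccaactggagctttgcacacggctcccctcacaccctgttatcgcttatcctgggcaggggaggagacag
CArG boxes bind serum response factor, MEF2 boxes bind MEF2 factors, and CAGCTG is a form of the E-box bound by MyoD family factors. Acta1 and Actc1 each hold a CArG box, beginning at -73 and -47 relative to the annotated start. Their TATAAA begins at -7 in Acta1 and at 34 in Actc1. Myh4 holds a CArG box, a MEF2 box, a CAGCTG and a forward-strand TATAAA at -213 and at -31. Myh8 holds a MEF2 box. In Myh4 and in Myh8 the MEF2 box overlaps a reverse-strand TATAAA. Tnnt1 holds a TATAAA beginning at -30, and the Tnni3 window holds none of the 4 motifs. Of 42 promoters listed for 35 member genes, 18 (42.9%) hold CAGCTG against 16.3% of all 32851 promoters of the same length. A MEF2 box was found in 7 (16.7%, against 3.19%), a CArG box in 5 (11.9%, against 1.63%) and TATAAA in 12 (28.6%, against 13.6%). A match describes the letters of the window and is not evidence that a factor bound there in these samples.

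Sarcomere genes were higher on the DKO-labelled array, across fibre types and stages. Of 42 measured members, 39 were higher by 2-fold or more and 0 were lower by as much, where the shares among all 14145 measured genes were 7.71% and 6.62%. At least 4-fold higher were 30 members, against 1.27% of all measured genes, and 40 had a difference above 0, against 49.5%. The members were chosen with earlier results of these data known, so these counts are descriptive and not an independent check. The median log2 difference of the members was 2.35, with quartiles of 1.85 and 2.59, and that of all measured genes was -0.01, with quartiles of -0.40 and 0.41. The 3 measured members under 2-fold were the fast myosin gene Myh4, the cardiac troponin gene Tnni3 and the calcium pump gene Atp2a2. Myh6, the myosin heavy chain of the atrium and adult mouse ventricle, was not well above background on either array, with signals of 21.5 and 18.4 at its brighter probe. In bulk RNA, fewer cells of a type and less RNA per cell cannot be told apart.

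**Figure D1:**
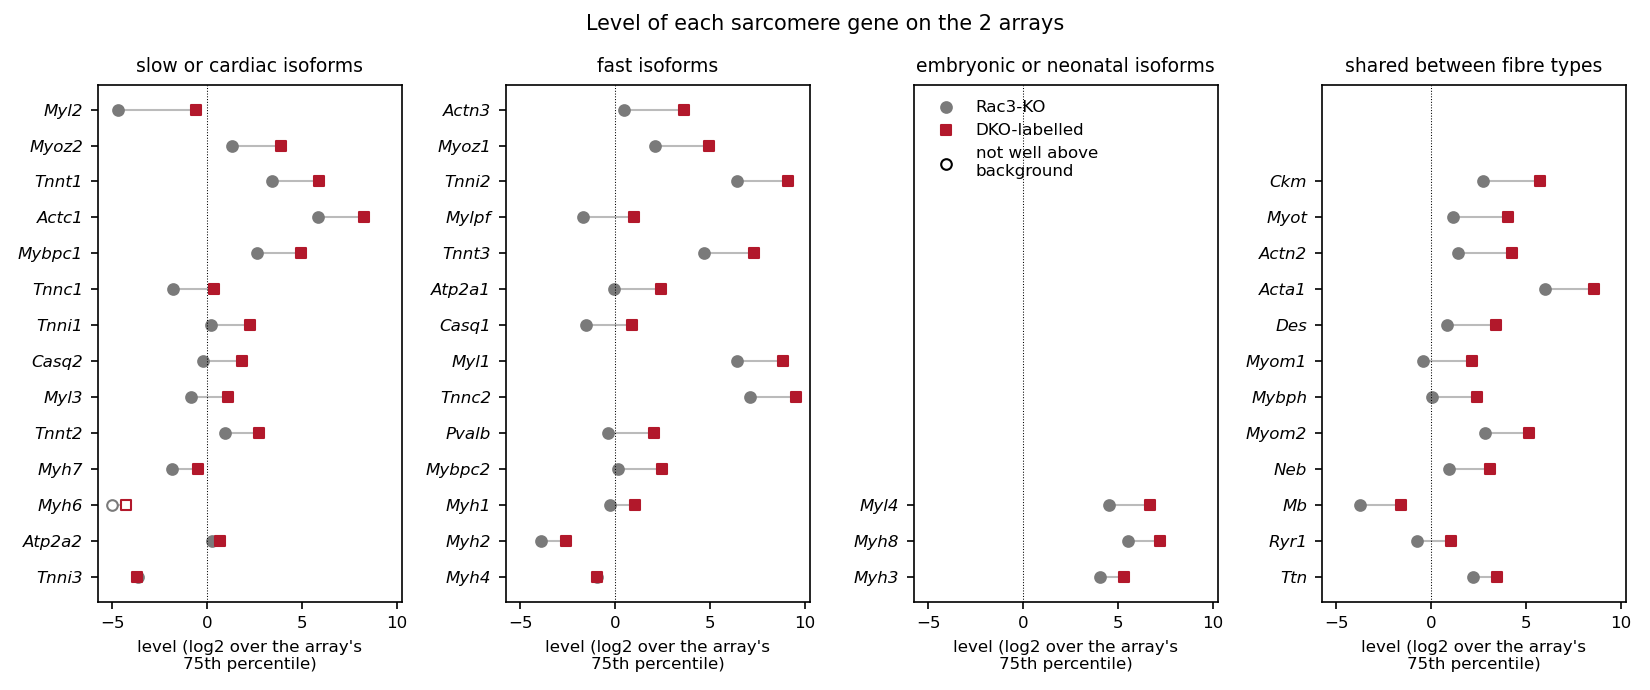
Level of each of the 43 genes (log2 over the array's 75th percentile, x axis) in Rac3-KO (grey circles) and in the DKO-labelled sample (red squares), in 4 classes; open symbols are not well above background, and levels of different genes are not to be compared because they come from different probes. The red square lies to the right of the grey circle for 40 of the 42 measured genes, and for 29 on the spike-in scale.

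The direction is relative to each array's overall signal. Before scaling, the 75th percentile was 704.9 in Rac3-KO and 354.4 in the DKO-labelled sample. The median difference of 8 spike-in probes was 1.06 before scaling. Set on the spike-in scale, the median of all measured genes was -2.06 and 93.1% of them were at least 2-fold lower, while 29 of 42 members stayed above 0, 2 were higher and 3 lower by 2-fold or more. Statements of direction below are relative to the 75th percentile.

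Slow or cardiac and fast isoforms were both higher, the fast ones by somewhat more at the median. Of 13 measured slow or cardiac isoforms 11 were at least 2-fold higher, with a median difference of 2.08 and a range of -0.07 to 4.07. Of 14 fast isoforms 13 were at least 2-fold higher, with a median of 2.43 and a range of -0.02 to 3.14. The 12 shared genes were all at least 2-fold higher, with a median of 2.49 and a range of 1.27 to 3.004. The 3 embryonic or neonatal isoforms were all at least 2-fold higher, with a median of 1.66 and a range of 1.22 to 2.17. On the spike-in scale the medians were 0.024 for slow or cardiac, 0.38 for fast, 0.44 for shared and -0.39 for embryonic or neonatal genes, so the direction of the last class flips there.

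**Figure D2:**
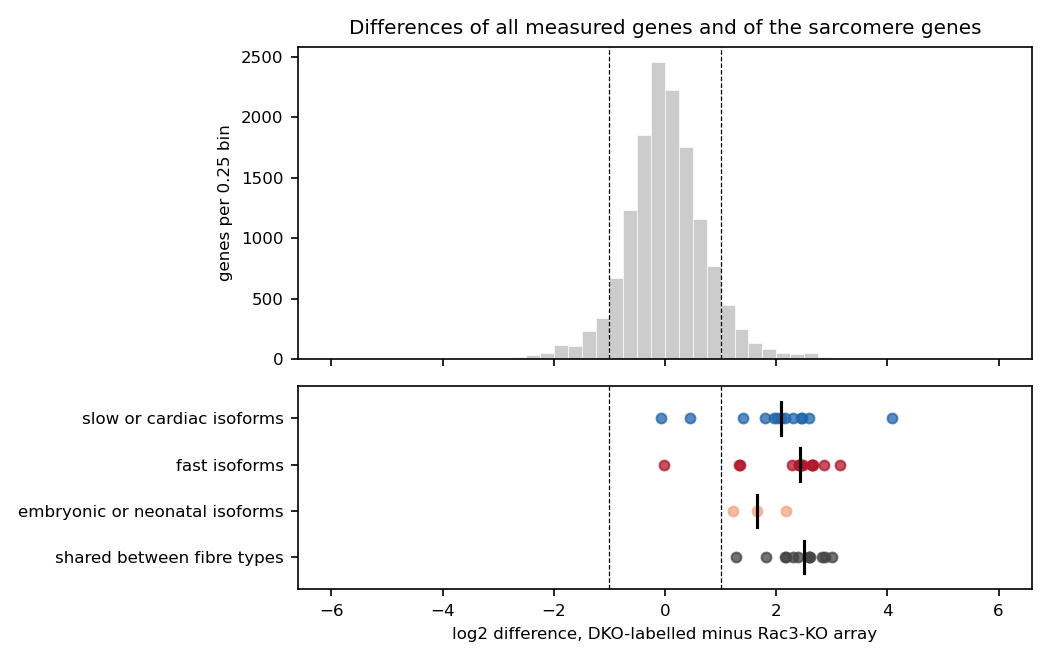
Upper panel, number of the 14145 measured genes per bin of log2 difference (x axis); lower panel, the measured sarcomere genes of each class as points, with the class median as a black bar and dashed lines at 2-fold. The class medians lie at 1.66 to 2.49, whereas the quartiles of all genes lie at -0.40 and 0.41.

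To compare fibre types without the scaling between arrays, 11 of the 14 slow or cardiac isoforms, and Actn2 of the shared genes, were set against a partner of the same family, and the partner's difference was subtracted. Tnni3, Tnnt2 and Myh6 were not paired, and the partner of Actc1 was Acta1, a gene of the shared class, so the pairs of Actc1 and Actn2 do not set a slow against a fast isoform. A single scaling factor for an array cancels in this value. The yardstick was the distance between the differences of the 2 brightest probes of a gene, over 3578 genes with several measured probes, which had a median of 0.24 and a 95th percentile of 1.09. Of 12 pairs, 9 lay within 1.09, between -0.58 and 0.02. This wide band judges 1 pair at a time and cannot judge a smaller shift that several pairs share. The value was below 0 in 9 of the 12 pairs and the median was -0.26. Of the 12 values, 8 lay within 1.96 times their software error. For a single log2 difference that error had a median of 0.20 over measured genes. It was wider than the median SD of 0.088 over repeated spots of 278 probes, so lying within it does not show that a value is 0. The value of Tnnc1 with Tnnc2 turned from -0.24 to 0.12 with quantile normalization. The 3 pairs beyond 1.09 were Myl2 with Mylpf at 1.42 ± 0.38, Myh7 with Myh4 at 1.42 ± 0.30 and Atp2a2 with Atp2a1 at -2.03 ± 0.29. The value of Myh7 depends on the partner chosen. Myh7 itself differed by 1.40, and the fast heavy chains not used as partner, Myh1 and the dim Myh2, differed by 1.35 and 1.32.

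**Figure D3:**
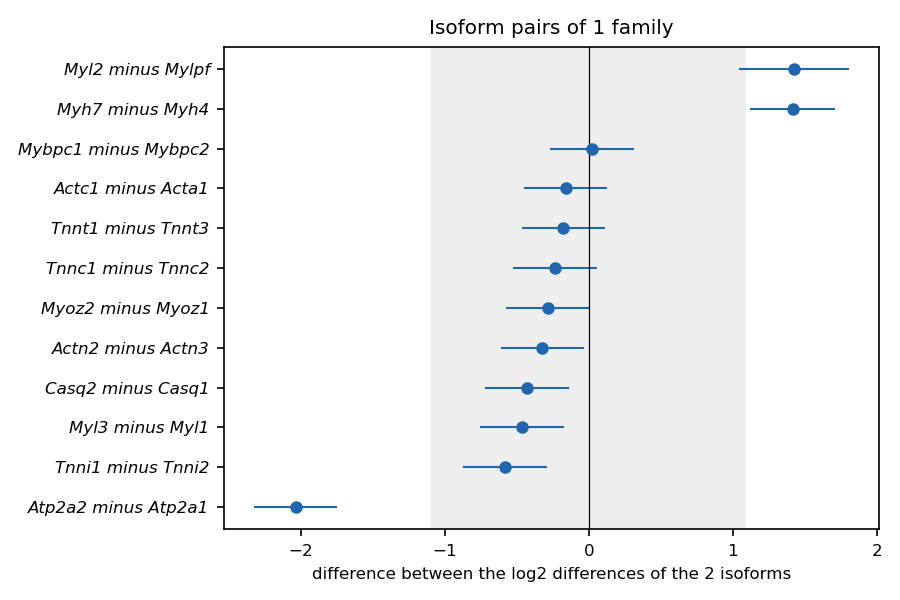
Log2 difference of the first-named gene (a slow or cardiac isoform, or Actn2) minus that of its partner (x axis) for 12 pairs, with the combined scanner software error as bars; the grey band reaches the 95th percentile of the distance between 2 probes of a gene, 1.09 either way. Points of 9 pairs lie inside the band and those of Myl2, Myh7 and Atp2a2 outside it.

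Myosin heavy chains, the motor proteins that set a fibre's contraction speed, were the least raised family. Their 6 measured members differed by -0.02 to 1.66, with a median of 1.34, while 33 of the 36 other measured members lay above 1.66, the exceptions being Tnni3, Atp2a2 and Ttn. This grouping was chosen after the values were seen. The embryonic gene Myh3 had signals of 11878 (Rac3-KO) and 13880 (DKO-labelled) and a difference of 1.22 ± 0.20, and its other probe gave 1.26. The neonatal gene Myh8 had signals of 32666 and 51902 and a difference of 1.66 ± 0.20, with 2.03 at its dimmer probe. Myh1, the IIx chain of fast fibres, had signals of 576.6 and 739.3 and a difference of 1.35 ± 0.20. Both developmental chains and Myh1 were therefore higher on the DKO-labelled array before scaling too, by less than after it. Myh2, the IIa chain, had signals of 46.2 and 58.0, near the background, and a difference of 1.32 ± 0.29, or 0.97, which is under 2-fold, with normexp background correction, a setting that also takes the median spot signal and adds an offset of 50. Myh7, the slow chain shared with the heart, had signals of 193.5 and 256.7 and a difference of 1.40 ± 0.21. Myh4, the IIb chain of the fastest fibres, had signals of 370.1 and 183.8 and a difference of -0.02 ± 0.21, the sole heavy chain whose signal before scaling was lower on the DKO-labelled array among the 6 measured. In the RefSeq gene order Myh3, Myh2, Myh1, Myh4 and Myh8 lie next to each other, and along this row the differences were 1.22, 1.32, 1.35, -0.02 and 1.66. On the spike-in scale the 5 raised chains were below 0, at -0.84 for Myh3, -0.73 for Myh2, -0.70 for Myh1, -0.66 for Myh7 and -0.39 for Myh8. Heavy chain genes resemble each other closely, so 1 probe can pick up several of them.

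Myosin light chains, which brace and regulate the motor's lever arm, were higher in each of 5 measured genes, with a range of 1.96 to 4.07, and Myl3 alone fell below 0 on the spike-in scale, at -0.10. Myl1, the essential light chain of fast fibres, had signals of 61205 and 164852 and a difference of 2.42 ± 0.20, and a probe for another of its transcripts gave 2.81. Myl4, the essential light chain of embryonic muscle and atrium, had signals of 16108 and 36514 and a difference of 2.17 ± 0.20. Among the 3 developmental isoforms it was the most raised, above both developmental heavy chains. Myl3, the essential light chain of slow fibres and ventricle, had signals of 391.4 and 764.7 and a difference of 1.96 ± 0.21. Mylpf, the regulatory light chain of fast fibres, had signals of 220.5 and 695.3 and a difference of 2.65 ± 0.21. Myl2, its counterpart in slow fibres and ventricle, had signals of 27.7 and 234.4 and a difference of 4.07 ± 0.32, the highest of all 14145 measured genes. Its signal on the Rac3-KO array was 1.18 times the lowest signal called well above background there. With that normexp setting, in which signal summary, background and offset all changed, the Myl2 difference was 2.51 and its distance from Mylpf 0.18, inside the probe yardstick.

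**Figure D4:**
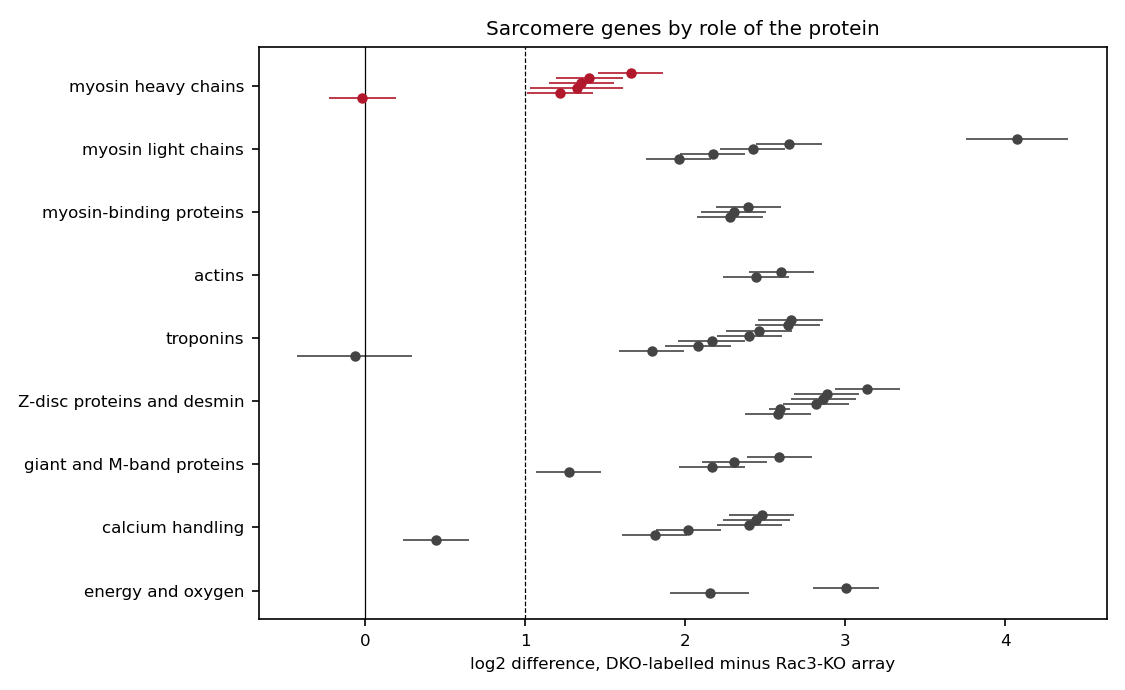
Log2 difference of each measured sarcomere gene (x axis) grouped by the role of its protein, with the scanner software error as bars and a dashed line at 2-fold. The heavy chains (red) lie at -0.02 to 1.66 and the Z-disc genes at 2.58 to 3.14.

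Actins form the thin filament. Acta1, the skeletal actin, had signals of 45193 and 137734 and a difference of 2.60 ± 0.20. Actc1, the cardiac actin that embryonic skeletal muscle also makes, had signals of 39717 and 108482 and a difference of 2.44 ± 0.20. The pair differed by -0.16 ± 0.29, which is within the software error.

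Of 8 troponin genes 7 were at least 2-fold higher, the fast and slow copies of each subunit among them; of these 7, Tnnt2 was below 0 on the spike-in scale, at -0.26. Tnnc2, the calcium-binding subunit of fast fibres, had signals of 97854 and 259874 and a difference of 2.40 ± 0.20, and Tnnc1, its slow and cardiac partner, had signals of 199.0 and 448.4 and a difference of 2.16 ± 0.21. Tnni2, the fast inhibitory subunit, had signals of 60617 and 192616 and a difference of 2.66 ± 0.20. Tnni1, the slow inhibitory subunit, had signals of 803.5 and 1707 and a difference of 2.08 ± 0.20. The distance of -0.58 ± 0.29 between these inhibitory subunits was beyond 1.96 times the software error but within the probe yardstick. Tnnt3, the fast tropomyosin-binding subunit, had signals of 17894 and 56065 and a difference of 2.64 ± 0.20, with 2.90 at its other probe. Tnnt1, the slow copy, had signals of 7626 and 21124 and a difference of 2.46 ± 0.20. Tnnt2, the cardiac copy that embryonic skeletal muscle also makes, had signals of 1349.8 and 2348.9 and a difference of 1.79 ± 0.20. Tnni3, the inhibitory subunit of the heart, had signals of 56.4 and 27.1, and its difference was -0.07 ± 0.36. These signals were 2.41 and 1.35 times the floor of their arrays, which limits the difference. Tnni3 is thus the troponin gene that was not seen raised, beside its chromosomal neighbour Tnnt1 at 2.46. With normexp Tnni3 differed by 0.48.

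Genes of the Z-disc, where thin filaments are anchored, and the intermediate filament gene Des were higher throughout. Their 6 genes had a median of 2.84 and a range of 2.58 to 3.14. Actn3, the alpha-actinin of fast fibres, had signals of 977.6 and 4330 and a difference of 3.14 ± 0.20, the highest among the fast isoforms. Actn2, the alpha-actinin of skeletal fibres and heart, had signals of 1914 and 6786 and a difference of 2.82 ± 0.20. Myot, which encodes the Z-disc protein myotilin, had signals of 1575 and 5851 and a difference of 2.89 ± 0.20. Myoz1 and Myoz2, calcineurin-binding proteins of fast and slow fibres, differed by 2.86 ± 0.20 and 2.58 ± 0.20, so the fast and slow copies were within 0.28 of each other. Des, which ties neighbouring Z-discs together and was spotted 10 times on each array, had mean signals of 1253 and 3794 and a difference of 2.59 ± 0.06.

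Among the giant and M-band proteins, titin (Ttn), which spans from Z-disc to M-band, had 4 measured probes with differences of 1.27, 1.74, 1.99 and 3.22. The brightest, with signals of 3195 and 3880, gave the lowest value, and the highest came from a probe for another titin transcript with signals of 104.6 and 490.9. With the mean over its probes titin differed by 2.06 in place of 1.27, and its brightest probe was at -0.78 on the spike-in scale. The gap of 1.95 between titin probes exceeded the yardstick of 1.09, whereas in the other 8 members with several measured probes the gap was 0.04 to 0.38. Neb, which encodes the thin filament ruler nebulin, differed by 2.17 and 2.03 at its probes. The M-band genes Myom1 and Myom2 differed by 2.59 ± 0.20 and 2.31 ± 0.20. Of the myosin-binding proteins, Mybpc1 of slow fibres and Mybpc2 of fast fibres differed by 2.30 ± 0.20 and 2.28 ± 0.20, the closest pair of isoforms among the 12, and Mybph by 2.39 ± 0.20.

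Calcium handling genes were at least 2-fold higher with 1 exception, though Ryr1 and Casq2 were at -0.25 and -0.036 on the spike-in scale. Atp2a1, the sarcoplasmic calcium pump of fast fibres, had signals of 672.7 and 1884 and a difference of 2.48 ± 0.20. Atp2a2, the pump of slow fibres and heart that most other tissues also make, epidermis included, had signals of 830.5 and 567.6 and a difference of 0.44 ± 0.20, with 0.19 at its other probe. Casq1 and Casq2, calcium stores of fast fibres and of slow fibres and heart, differed by 2.44 ± 0.21 and 2.02 ± 0.20. Ryr1, the calcium release channel of skeletal muscle, differed by 1.81 ± 0.21, and Pvalb, the calcium buffer of fast fibres, by 2.40 ± 0.20 and 2.50 at its probes. The creatine kinase gene Ckm had signals of 4712 and 19006 and a difference of 3.004 ± 0.20, and Mb, the oxygen store myoglobin of oxidative fibres and heart, had signals of 51.9 and 115.9 and a difference of 2.15 ± 0.25, or 1.34 with normexp.

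Other genes of the muscle fibre were higher as well, in lists also chosen with earlier results of these data known. The shares of all measured genes at least 2-fold higher and lower were 7.71% and 6.62%. Of 24 measured further sarcomere genes 22 were higher by 2-fold or more and 0 lower, with a median of 2.45. Lmod2, an actin filament elongation factor, differed by 3.75, though its Rac3-KO signal of 35.3 was dim, and the muscle heat shock gene Hspb7 by 3.60; the tropomyosin gene Tpm1 had signals of 33868 and 107839 and a difference of 2.66. Of 16 measured excitation-contraction coupling genes 13 were higher by 2-fold or more and 0 lower, with a median of 2.14. Cacna1s, the voltage sensor of skeletal muscle, differed by 2.72, and Sln, a regulator of the calcium pump, by 2.70. All 16 muscle energy metabolism genes were measured, 14 at least 2-fold higher and 0 lower, with a median of 2.53; Art1 differed by 3.04, Cox6a2, a muscle subunit of cytochrome oxidase, by 2.92 and the muscle enolase gene Eno3 by 2.70. Transcription factors and other regulators of myogenesis were less raised, with 5 of 11 measured genes at least 2-fold higher, 1 lower and a median of 0.998 (log2). Myf6, the factor of mature fibres, differed by 2.57, while Pax3, which melanocytes also make, by -1.25.

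Because several members are shared with the heart, heart markers were set beside them. Of 12 heart markers 4 were measured, 1 was at least 2-fold higher and 0 lower, with a median of 0.75. The listed genes Myl7, Nkx2-5, Tbx20, Hcn4, Ryr2, Sbk2 and Kcnj3 were not well above background on either array, nor was the member Myh6. Nppb, a natriuretic peptide gene of the heart, passed the background call in the DKO-labelled sample but not in Rac3-KO, with signals of 27.17 and 35.02. The measured ones were Nppa at 0.71, Mybpc3 at 1.06, Tbx5 at 0.80 and Gja5, a connexin of atrium and arteries, at 0.19. Mybpc3, with dim signals of 38.9 and 40.9, is also counted among the further sarcomere genes above. Of 9 measured smooth muscle markers 1, Myocd, was at least 2-fold higher at 1.69, and the median was 0.61. Acta2 and Tagln, the smooth muscle actin and transgelin genes, differed by 0.93 and 0.96. Over all measured genes 7.71% were at least 2-fold higher, so a count of 1 in such short lists says little.

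Keratinocyte markers were lower in the DKO-labelled sample, while medians of the remaining marker lists lay between -0.39 and 1.16. All 14 keratinocyte markers were lower and 12 of them at least 2-fold, with a median of -1.82. Their processed signals before scaling summed to 776515 in Rac3-KO and 114855 in the DKO-labelled sample. Such sums hold the shift between the arrays, whose 75th percentiles were 704.9 and 354.4. None of these 14 was at background, so keratinocyte RNA was present on both arrays; Krt5 and Perp, a keratin and a desmosome-associated gene, had signals of 219046 and 47847 and of 125916 and 25087, and Krt1 and Krt10 differed by -4.95 and -4.50. The 10 fibroblast markers had a median of 0.79 and summed signals before scaling of 1137829 and 1025133, 2 of them at least 2-fold higher. All 10 were well above background on both arrays, with Col1a2 at signals of 393716 and 357516. By these markers neither sample held keratinocyte RNA alone. Of 5 measured leukocyte markers 3 were at least 2-fold higher, with a median of 1.16, and the medians of 6 adipocyte, 6 endothelial and 3 Schwann cell markers were 0.72, 0.61 and -0.39. Over all measured genes the shares at least 2-fold higher and lower were 7.71% and 6.62%. The part of the other cell types in the sarcomere gene differences was not tested.

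**Figure D5:**
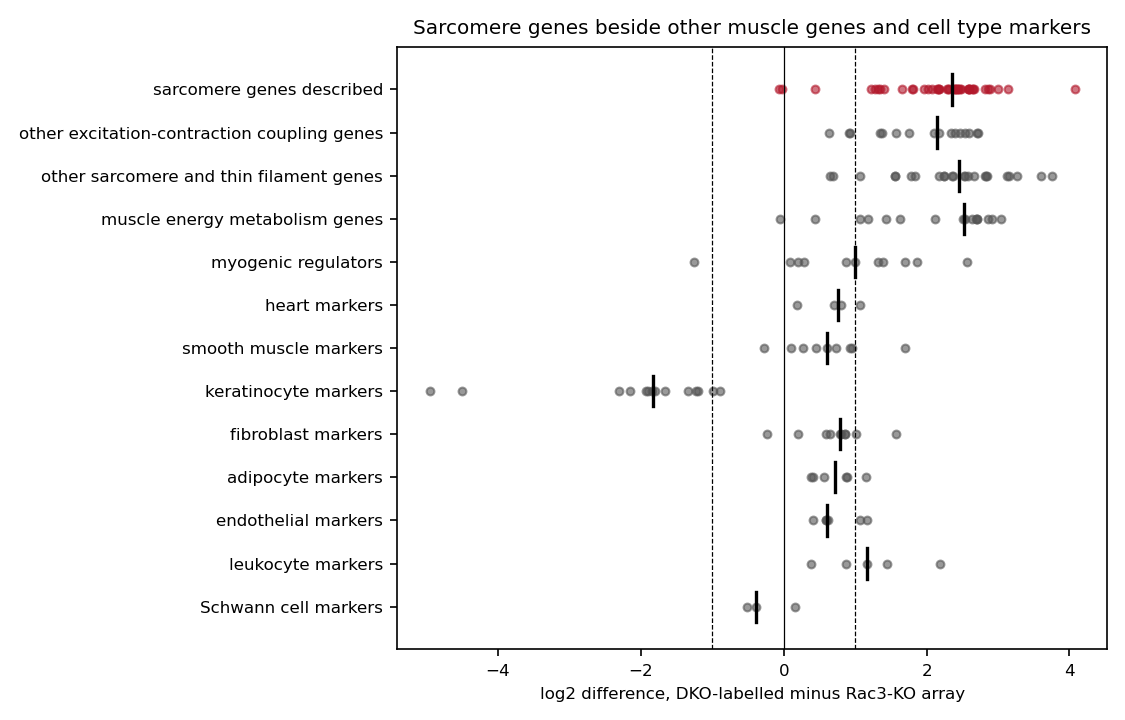
Log2 difference (x axis) of each measured gene in the described sarcomere set (red) and in further muscle lists and cell type marker lists (grey), with list medians as black bars and dashed lines at 2-fold. The sarcomere median of 2.35 lies near those of the further sarcomere, coupling and energy genes at 2.45, 2.14 and 2.53, and the keratinocyte median is -1.82.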

How the data were processed

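Total RNA of 1 sample per genotype was amplified to Cy3-labelled cRNA per the labels' protocols and hybridised to 1-colour Agilent arrays. The deposited files hold spot intensity, which per the file headers was extracted by Feature Extraction 10.10.1.1 (9.1 per the submitters' processing notes), background-subtracted and detrended within each array; the flags used, scored as 0 or 1, are the software's. The authors' deposited value table holds log2 levels. It equals the log2 processed signal less a constant per array for 100% of single-spot probes within 0.001, with column medians of -3.72 and -3.62, and being a level it needs no direction settled.

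The log2 processed signal of a probe was its mean over spots, without control spots and outlier spots (155 and 190). Each array's 75th percentile was then subtracted. Accessions were matched to the GRCm38.p6 RefSeq table, used for names and gene order because the array design names an earlier build; 26580 of 55678 probes matched 1 gene. A gene was represented by its probe of highest mean level. With 1 array per group no test was run, and 2-fold was the threshold. The script for gene differences was tested on simulated data. The members and lists were chosen with earlier results of these data known. Named genes were the 43 members, Rac1 and Rac3, and of each further list examples among its brightest and its most different genes; the heart markers were named after their values were seen.

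Alternatives were other scalings (median, percentile over detected probes, quantile, spike-in), no detection filter and a stricter one, a gene's mean over probes, the deposited value table, other thresholds and class memberships, and, chosen after seeing the data, normexp on the median spot signal (offset 50, limma 3.58.1), since the planned normexp on the mean spot signal could not be run.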

Additional observations from a re-analysis of the deposited data

How the results depend on the processing

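No paired analysis was possible because each group has 1 array. The counts of members at least 2-fold apart, the 4 class medians and the median over isoform pairs moved by less than 1.5 times or by less than the spread between probes (root mean square 0.38) under every alternative run other than spike-in scaling. On the spike-in scale 2 members were higher and 3 lower by 2-fold or more, and the class medians were 0.024 for slow or cardiac, 0.38 for fast, 0.44 for shared and -0.39 for embryonic or neonatal genes, the last with its sign turned. Members above 2-fold whose sign turned there were Myh3 at -0.84, Ttn at -0.78, Myh2 at -0.73, Myh1 at -0.70, Myh7 at -0.66, Myh8 at -0.39, Tnnt2 at -0.26, Ryr1 at -0.25, Myl3 at -0.10 and Casq2 at -0.036. Normexp moved Myl2 to 2.51, Mybph to 2.001, Mb to 1.34 and Tnni3 to 0.48, and left 38 members at least 2-fold higher, Myh2 being under 2-fold at 0.97. At thresholds of 1.5-fold and 3-fold, 39 and 34 members were higher. With both signals at least 4 times the floor, 38 members remained and 36 were at least 2-fold higher. Scaling to the median moved the share of higher genes among all those 2-fold apart from 53.8% to 43.6%, with 39 members still higher. Signals of 4 members, Myl2, Myh2, Tnni3 and Myh6, lay within 2 times the floor on at least 1 array, which limits their differences.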
